A study of Homo sapiens with 9 samples.

Results

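The genes described here encode the proteins that build the small (40S) subunit of the human ribosome: the small subunit (SSU) processome and the factors that mature and export the 40S precursor. They were taken as a list of 44 gene symbols and matched to the count table by Ensembl gene identifier. Of these, 43 were matched among 60234 identifiers, and AATF was not analysed here. All 43 passed the filter on low counts, as did 15847 genes in all.

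The cells were of the Ramos line, B cells of a Burkitt lymphoma without EBV, and their RNA was sequenced in 3 groups of 3 biological replicates. The groups were untreated cells (0 h) and cells treated with 3 µM CHIR99021, an inhibitor of the kinase GSK-3, for 3 h or 6 h. All libraries thus come from a single lymphoma line, and no untreated cells kept for 3 h or 6 h are among them, so treatment and time cannot be told apart. The study's title concerns the stabilization of MYC. Levels are read counts relative to library size (CPM), scaled between libraries by TMM factors. In bulk RNA, a change in the share of cells that express a gene and a change in its RNA per cell cannot be told apart.

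The processome assembles on the nascent precursor ribosomal RNA in the nucleolus. The UTP-A and UTP-B complexes bind its leader first, the U3 small nucleolar RNA with its proteins then base pairs with the precursor, and UTP-C, the BMS1 GTPase and many single factors join as the 18S region folds. Nucleases and the DHX37 helicase then take the particle apart into a 40S precursor, which is exported and trimmed to its final form in the cytoplasm. Genes for ribosome assembly are among the best known targets of MYC, which with its partner MAX binds the E-box, the sequence CACGTG.

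Promoters of these genes often held an E-box. The sites of a selection of genes, with large, middle or small changes, are shown here because the comparisons below return to E-boxes. Not all sites are shown. RefSeq promoter windows (GRCh38.p14, 250 bases before to 50 after the transcript start) were available for 39 of the 44 listed genes, and not for NOL10, DCAF13, MPHOSPH10, RRP12 and UTP23. CACGTG, which reads the same on both strands, was present in 18 of these 39 windows (46.15%, Wilson 95% interval 31.57 to 61.43), of which that of AATF belongs to the gene not measured here. It was present in 10.25% of the windows of 10233 tested genes and in 7.435% of all 27305 windows. Each line gives a 30-base stretch, 5′ to 3′ on the gene's strand, with the E-box in capitals.
NOL6 (chr9:33473894-33473923, - strand): ggcatttccgccCACGTGggaagctatgag
RRP9 (chr3:51941892-51941921, - strand): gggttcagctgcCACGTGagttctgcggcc
PNO1 (chr2:68157885-68157914, + strand): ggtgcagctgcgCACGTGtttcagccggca
NAT10 (chr11:34105602-34105631, + strand): aatgcgcttgcgCACGTGctgtctaccagt
NOP14 (chr4:2963374-2963403, - strand): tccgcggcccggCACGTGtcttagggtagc
WDR43 (chr2:28894658-28894687, + strand): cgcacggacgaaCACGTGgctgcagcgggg
UTP18 (chr17:51260445-51260474, + strand): gggagtgctggtCACGTGgcaagaggctgc
UTP18 (chr17:51260538-51260567, + strand): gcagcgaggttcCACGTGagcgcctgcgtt
IMP4 (chr2:130342682-130342711, + strand): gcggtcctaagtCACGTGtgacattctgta
IMP4 (chr2:130342900-130342929, + strand): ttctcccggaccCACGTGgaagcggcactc
The 250 bases before the start of UTP20, whose change at 6 h was, with that of NOL6, among the largest of the genes with a window, are at chr12:101279855-101280104 (+ strand).
UTP20: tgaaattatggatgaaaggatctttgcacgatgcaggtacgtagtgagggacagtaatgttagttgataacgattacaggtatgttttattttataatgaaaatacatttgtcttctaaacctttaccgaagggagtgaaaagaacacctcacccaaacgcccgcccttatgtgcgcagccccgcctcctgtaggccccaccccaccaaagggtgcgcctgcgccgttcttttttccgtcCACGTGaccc

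Of the 20 matches, 16 began between 20 bases before and 50 bases after the transcript start, in 16 genes. UTP18 and IMP4 held 2 matches each. None of the 20 overlapped a match to another of the motifs searched. Those motifs, on both strands, were the E-box variant CACGCG (23.08% of members against 18.55% of tested genes), the ETS core CCGGAAG (41.03% against 20.18%) and the NRF1 element (5.128% against 2.531%). The YY1 core ATGGCGG was in 15.38% against 10.9%, and the ZBTB33-type element in 5.128% against 0.987%. A match describes the letters of a window and not binding of a factor, which was not measured here.

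Each library held between 46359911 and 52880876 reads in genes. Summed B cell markers were between 2751 and 3051 CPM in every library, while the summed markers of T and NK cells, of myeloid cells and of epithelial cells and fibroblasts each stayed at or below 0.208 CPM, with CD3D, CD33 and EPCAM at 0. Against untreated cells, log2 fold changes of the 8 single B cell markers ran from -1.02 to 0.57 at 3 h. At 6 h they ran from -0.97 to 0.95. The untreated replicate 3 stood apart from the other untreated libraries: their counts differed by a chi-square per degree of freedom of 32.5 and 29.1, against 1.74 between replicates 1 and 2 and 2.65 to 13.3 between treated replicates. At 6 h, replicate 10 differed from replicates 9 and 11 by 13.3 and 10.7, against 5.82 between replicates 9 and 11. At 3 h, replicate 6 differed from replicates 5 and 7 by 8.36 and 8.07, against 2.65 between replicates 5 and 7. In the untreated replicate 3, long transcripts were low. Across the 43 genes, the log2 difference of this library from the other untreated ones had a Spearman correlation of -0.67 with exon length (-0.43 across 15397 tested genes), given as a description over genes of the same libraries. HEATR1 was lowest at -0.51 and UTP20 next at -0.44. For the 43 genes against untreated cells, medians and numbers called higher are given with and without this library. So are the changes of HEATR1 and UTP20. Most other changes, and the shares of all tested genes, are given with all libraries only. Without this library, the 3 h log2 fold change went from 0.89 to 0.77 for WDR36 and from 0.78 to 0.68 for KRR1. That of IMP3 went from 0.53 to 0.60.

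The first comparison asked how these transcripts stood after 3 h of the inhibitor. In edgeR's quasi-likelihood test (adjusted p under 0.05 over all tested genes), 40 of the 43 rose and 0 fell, where 32.8% of all tested genes rose and 33.5% fell. None fell at an unadjusted p under 0.05 either, and DESeq2 and limma-voom also called 0 lower. The median log2 fold change was 1.03, a 2.05-fold increase, against -0.01 over all tested genes. At least 2-fold increases that passed the test occurred in 22 of the 43, and in 4.95% of all tested genes. In 42 of the 43, the 3 libraries at 3 h were all above the 3 untreated ones, as they were for 34.8% of tested genes. The 3 that did not pass were UTP18 (log2 fold change 0.05 ± 0.0483, SE), IMP4 (0.07 ± 0.0478) and UTP3 (0.11 ± 0.0467), with edgeR adjusted p of 0.381, 0.187 and 0.0527. Without the untreated replicate 3, 42 rose, IMP4 and UTP3 among them, and the median was 1.06.

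After 6 h, 42 of the 43 were higher than in untreated cells and 0 were lower in edgeR's test, where 35.7% of all tested genes were higher and 35% lower. At an unadjusted p under 0.05, and by DESeq2 and limma-voom, 0 were lower. The median log2 fold change was 1.17, or 2.24-fold, against 0.02 over all tested genes. At least 2-fold increases that passed were found for 28 genes, against 6.44% of all tested genes. All 3 libraries at 6 h were above the 3 untreated ones for 42 genes, and for 36.2% of tested genes. Both comparisons share the untreated libraries. IMP4 was the gene that did not pass. Without the untreated replicate 3, 42 again rose and the median was 1.09. The summed level of the 43 genes was 2641 ± 14.1 CPM untreated, 4970 ± 25.1 CPM at 3 h and 5677 ± 155 CPM at 6 h (SD, n = 3), which is 1.88 and 2.15 times the untreated sum. Among the 6 h libraries, replicate 10 had the lowest sum, 5500 CPM, against 5788 CPM in replicate 9 and 5742 CPM in replicate 11.

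**Figure D1:**
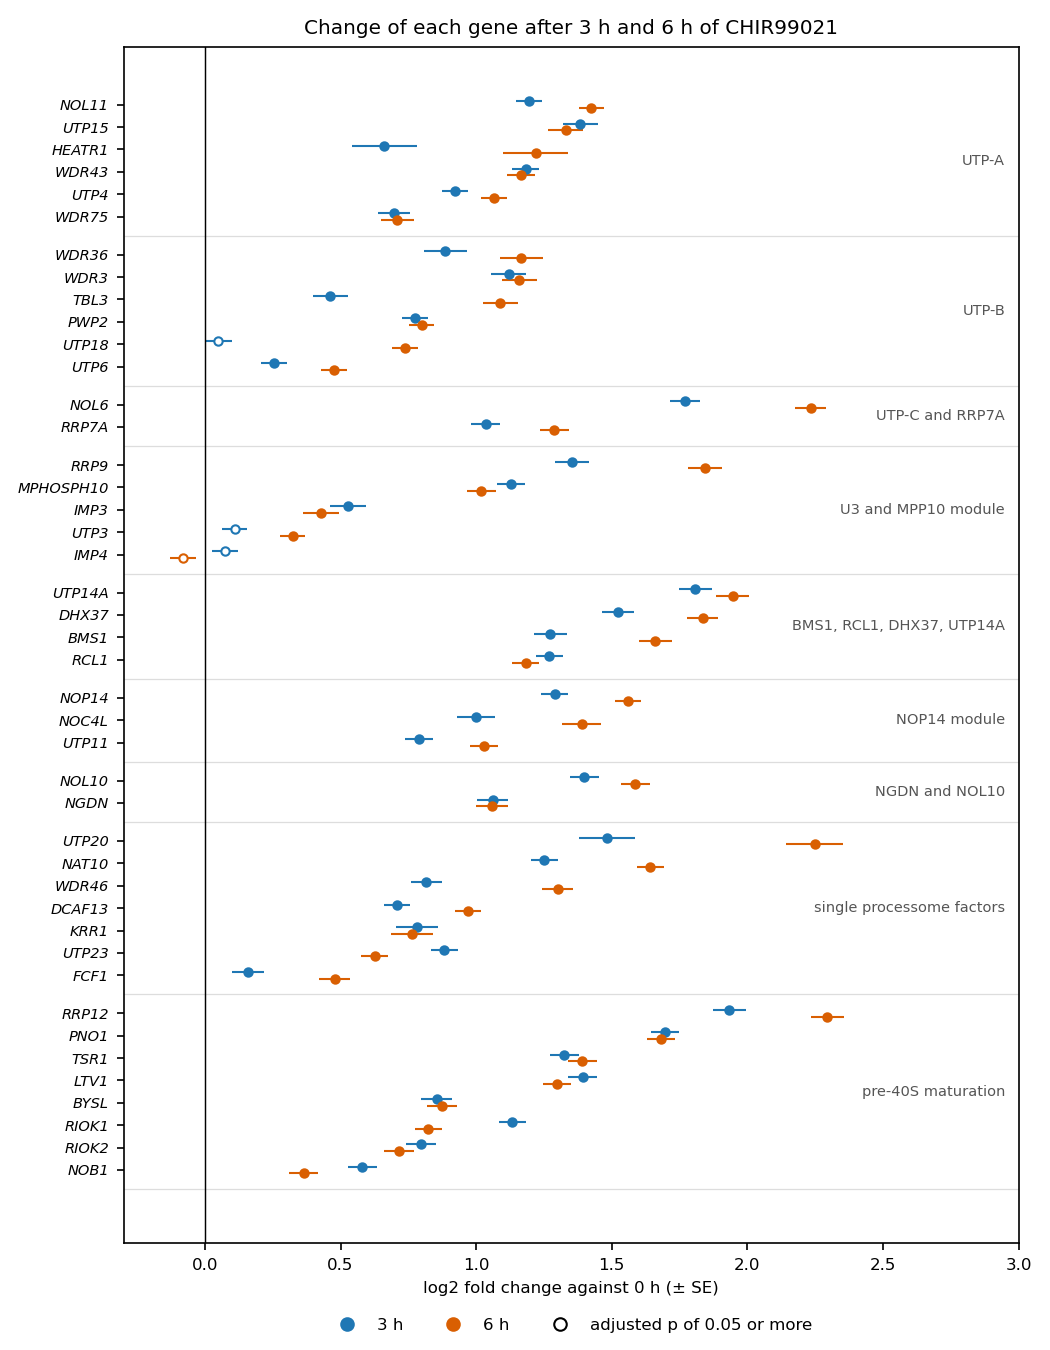
Log2 fold change against 0 h (horizontal axis, ± SE of edgeR's fit) of each of the 43 genes at 3 h (blue) and 6 h (orange), grouped by role, with open circles for an adjusted p of 0.05 or more. All points but those of UTP18, UTP3 and IMP4 at 3 h and IMP4 at 6 h are filled, and RRP12 reaches the highest value at 2.29.

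Scaling by upper-quartile factors or by library size alone moved the median of all tested genes at 3 h to -0.17 and -0.22, and at 6 h to -0.13 and -0.22. A scaling shifts all genes by nearly the same amount, so the members' median lay 1.05 above that of all tested genes at 3 h and 1.15 above it at 6 h under each of them. The sign of small changes depended on it: with library size alone, UTP18 and IMP4 were called lower at 3 h (log2 fold changes -0.15 and -0.13), while UTP3 stood at -0.09 and FCF1 at -0.04 without passing.

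**Figure D2:**
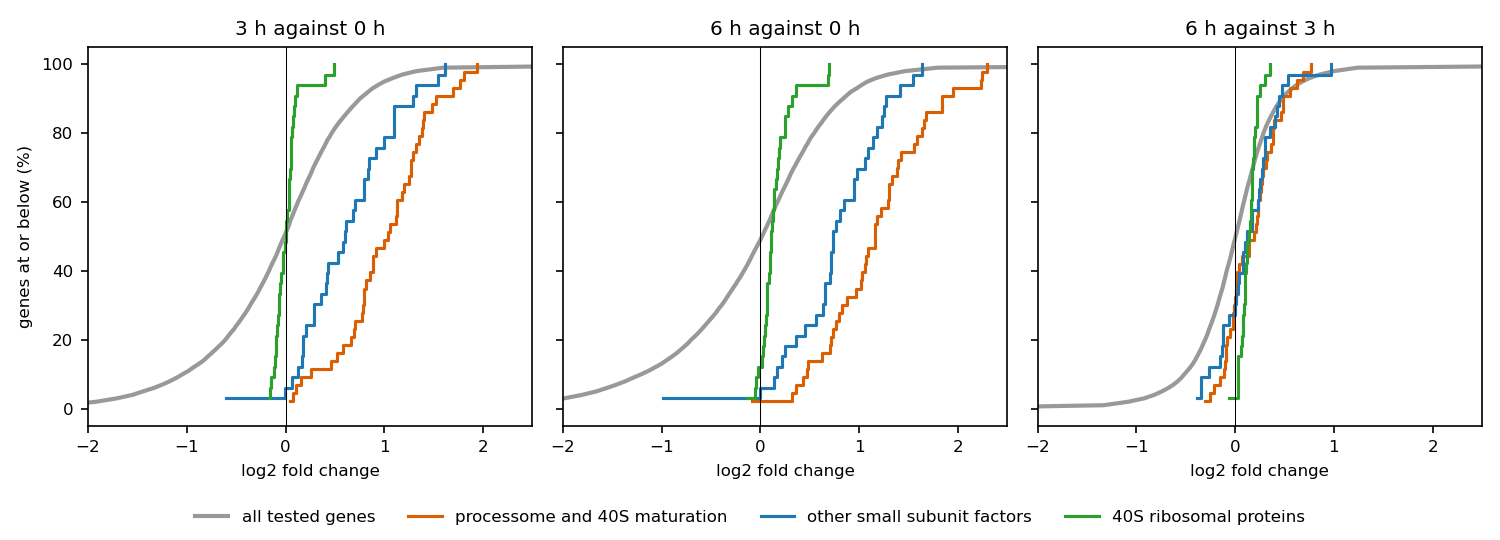
Cumulative share of genes (vertical axis, %) at or below a log2 fold change (horizontal axis) for all tested genes (grey), the 43 processome and 40S maturation genes (orange), 33 other small subunit factors (blue) and 33 genes of 40S ribosomal proteins (green), in each comparison. The orange curve lies to the right of the grey one at 3 h (medians 1.03 and -0.01) and at 6 h (1.17 and 0.02). Between 3 h and 6 h its median also lies to the right, by less (0.19 and 0.01).

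The UTP-A complex, which binds the leader of the precursor and, as t-UTPs, is also linked to its transcription, rose at both times in 6 of 6 members, with median log2 fold changes of 1.05 and 1.19. UTP15 (ENSG00000164338), a WD-repeat subunit, was at 18.0, 18.6 and 15.5 CPM in the untreated libraries, 43.7, 46.6 and 45.9 CPM at 3 h and 43.9, 42.9 and 44.4 CPM at 6 h. The treated libraries lay far above the untreated ones, and 3 h and 6 h overlapped. NOL11 (ENSG00000130935), a vertebrate UTP-A subunit, was at 64.9, 63.8 and 61.6 CPM in the untreated libraries, 142, 147 and 147 CPM at 3 h and 172, 165 and 174 CPM at 6 h. It was higher again at 6 h than at 3 h (log2 0.23 ± 0.0460, edgeR adjusted p 0.00119). HEATR1 (ENSG00000119285), a very large HEAT-repeat protein, was at 86.0, 83.8 and 59.4 CPM in the untreated libraries, 121, 128 and 114 CPM at 3 h and 171, 187 and 175 CPM at 6 h. Its untreated replicate 3 was far below the other untreated libraries, and its increase at 3 h went from 1.58-fold to 1.42-fold without that library, and at 6 h from 2.33-fold to 2.09-fold. WDR43 rose from a mean of 104 to 236 and 234 CPM, UTP4 had log2 fold changes of 0.92 ± 0.0484 and 1.07 ± 0.0486, and WDR75 had the smallest 6 h increase of the complex at 0.71 ± 0.0601. Exons of HEATR1 share 23.2% of their bases with other annotated genes, and whether reads were counted by strand was not given in the sources used here.

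UTP-B, the scaffold of WD-repeat proteins that joins UTP-A to the U3 particle, had a median log2 fold change of 0.62 at 3 h, where 5 of 6 rose, and of 0.94 at 6 h, where 6 of 6 were higher. UTP18 (ENSG00000011260), whose yeast counterpart recruits the RNA exosome, rose late. Its levels were 64.2, 64.0 and 64.9 CPM in the untreated libraries, 65.7, 66.7 and 67.5 CPM at 3 h and 110.1, 102 and 110.2 CPM at 6 h. The 3 h libraries exceeded the untreated ones by little and the 6 h libraries exceeded both groups, with 0.69 ± 0.0482 log2 between 3 h and 6 h (edgeR adjusted p 1.64e-07). TBL3 (ENSG00000183751) was at 49.3, 46.5 and 51.7 CPM in the untreated libraries, 71.4, 64.1 and 67.7 CPM at 3 h and 114, 99.7 and 101 CPM at 6 h, so that most of its 6 h log2 fold change of 1.09 ± 0.0649 came after 3 h. Its exons share 29.9% of their bases with other annotated genes. UTP6, the subunit with HAT repeats, had 0.26 ± 0.0478 at 3 h and 0.48 ± 0.0478 at 6 h. Its 3 h call was lost with upper-quartile factors (edgeR adjusted p 0.0603), library size alone (0.282) and a minimum fold of 1.2 (0.455). PWP2 and WDR3 had most of their increase by 3 h, with 0.77 ± 0.0468 and 1.12 ± 0.0653 then and 0.80 ± 0.0468 and 1.16 ± 0.0653 at 6 h, and WDR36 had 0.89 ± 0.0790 and 1.17 ± 0.0793.

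NOL6 (ENSG00000165271), the human Utp22 homologue and core of UTP-C, was at 48.3, 48.2 and 42.9 CPM in the untreated libraries, 160.0, 155 and 160.5 CPM at 3 h and 224, 213 and 218 CPM at 6 h. These log2 fold changes of 1.77 ± 0.0552 and 2.23 ± 0.0559 (edgeR adjusted p 2e-11 and 1.51e-12) were among the largest of the 43, and the groups did not overlap. RRP7A, its partner, started from a higher level per kilobase (35.3 against 7.87 RPKM) and had 1.03 ± 0.0524 and 1.29 ± 0.0526. Its copy RRP7BP held 16.5% as many reads, and how reads between such copies were divided was not tested.

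The proteins of the U3 particle and of the MPP10 module, which guide U3 to its pairing sites, differed in size of change. RRP9 (ENSG00000114767), the WD-repeat protein specific to the U3 particle, was at 29.3, 28.4 and 32.5 CPM in the untreated libraries, 79.3, 73.1 and 78.2 CPM at 3 h and 114, 103 and 107 CPM at 6 h. It rose by 1.35 ± 0.0624 log2 at 3 h and stood at 1.84 ± 0.0629 at 6 h. MPHOSPH10 (MPP10) was 1.13 ± 0.0525 and 1.02 ± 0.0526. Its partners IMP3 and IMP4 (ENSG00000136718) had smaller values: IMP3 had 0.53 ± 0.0663 and 0.43 ± 0.0664, and IMP4 was at 351, 355 and 376 CPM in the untreated libraries, 385, 371 and 383 CPM at 3 h and 354, 329 and 340.4 CPM at 6 h. IMP4 was the most abundant of the 43 per kilobase in untreated cells (93.4 RPKM), its libraries overlapped between untreated and treated cells at both times, and it was lower at 6 h than at 3 h (-0.15 ± 0.0479, edgeR adjusted p 0.0183). UTP3 (SAS10), which binds MPP10, had 0.11 ± 0.0467 and 0.32 ± 0.0466 and passed at 6 h only (edgeR adjusted p 2.57e-05). Its 6 h call was lost with library size alone (edgeR adjusted p 0.0726) and with a minimum fold of 1.2 (0.0655). Of the exon bases of IMP3, 59.3% are shared with other annotated genes.

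The enzymes that rearrange the particle and their partners rose at both times in 4 of 4, with medians of 1.40 and 1.75. UTP14A (ENSG00000156697), the cofactor of DHX37 (ENSG00000150990), was at 25.4, 26.9 and 25.4 CPM in the untreated libraries, 88.1, 95.6 and 88.5 CPM at 3 h and 103, 92.7 and 104 CPM at 6 h. Every treated library was far above all untreated ones. UTP14C, a retrogene copy of UTP14A, held 60.4% as many reads. DHX37, the helicase that displaces U3, was at 67.6, 70.5 and 63.7 CPM in the untreated libraries, 200.1, 184 and 196 CPM at 3 h and 254, 235 and 231 CPM at 6 h. BMS1, a GTPase, and RCL1, its cyclase-like partner, had log2 fold changes of 1.27 ± 0.0608 and 1.27 ± 0.0504 at 3 h and of 1.66 ± 0.0612 and 1.18 ± 0.0505 at 6 h. BMS1 rose further (log2 0.39 ± 0.0594 between 3 h and 6 h) and RCL1 did not pass (-0.09 ± 0.0490, edgeR adjusted p 0.167). The difference between the 2 genes was not tested. Annotated copies of BMS1 held 14.8% as many reads as BMS1.

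NOP14 (ENSG00000087269), its partner NOC4L and UTP11 rose at both times and again between 3 h and 6 h (3 of 3 in each comparison). NOP14 was at 104, 107 and 109 CPM in the untreated libraries, 259, 264 and 259.6 CPM at 3 h and 329, 301 and 313 CPM at 6 h, and NOC4L and UTP11 had 1.39 ± 0.0717 and 1.03 ± 0.0518 at 6 h. NOL10 and NGDN, which bind each other and AATF, had 1.40 ± 0.0543 and 1.06 ± 0.0573 at 3 h. At 6 h NOL10 stood at 1.59 ± 0.0544 and NGDN at 1.06 ± 0.0574.

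The processome factors outside the complexes rose at both times in 7 of 7, with medians of 0.82 and 0.97, and ranged at 6 h from FCF1 to UTP20 (ENSG00000120800). UTP20, a very large scaffold of HEAT repeats, was at 34.1, 34.7 and 25.4 CPM in the untreated libraries, 86.8, 92.8 and 83.6 CPM at 3 h and 140.3, 158 and 149 CPM at 6 h. Its log2 fold changes were 1.48 ± 0.103 and 2.25 ± 0.105 with all libraries and 1.35 and 2.11 without the untreated replicate 3, which was low for this long transcript. The rise between 3 h and 6 h, 0.77 ± 0.0994, was between groups that do not hold that library and was the highest among the 43 (edgeR adjusted p 9.16e-05). Its SE and p still drew on that library through the shared estimate of spread. Without that library, the edgeR adjusted p was 1.96e-09. NAT10 (ENSG00000135372), the acetyltransferase of 18S RNA, was at 88.8, 90.1 and 82.1 CPM in the untreated libraries, 209, 207 and 205 CPM at 3 h and 278, 262 and 275 CPM at 6 h. WDR46 (UTP7) and DCAF13 (SOF1), both WD-repeat proteins, had 1.30 ± 0.0570 and 0.97 ± 0.0481 at 6 h, and the KH-domain protein KRR1 had 0.76 ± 0.0775. FCF1 and UTP23 (ENSG00000147679), which carry PIN nuclease domains, behaved unlike each other. FCF1 (ENSG00000119616, UTP24), the nuclease of early precursor cleavage, was at 56.2, 56.9 and 60.9 CPM in the untreated libraries, 64.3, 63.2 and 66.8 CPM at 3 h and 77.5, 77.7 and 87.3 CPM at 6 h, and its small 3 h increase (0.16 ± 0.0582, edgeR adjusted p 0.0269) was lost with upper-quartile factors (adjusted p 0.945) and when untreated replicate 1 or 2 or 3 h replicate 5 or 7 was left out (0.0521 to 0.11). UTP23 was at 36.4, 34.8 and 33.4 CPM in the untreated libraries, 62.2, 65.8 and 64.8 CPM at 3 h and 54.8, 52.8 and 53.8 CPM at 6 h, high at 3 h and lower again at 6 h.

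The factors of the 40S precursor, which act before, during and after its export, rose at both times in 8 of 8, with medians of 1.23 and 1.09. RRP12 (ENSG00000052749), an export factor, was at 30.8, 32.1 and 29.4 CPM in the untreated libraries, 122, 113 and 117 CPM at 3 h and 160.1, 142 and 151 CPM at 6 h. It had the highest log2 fold change of the 43 at both times, 1.93 ± 0.0598 and 2.29 ± 0.0604 (edgeR adjusted p 1.97e-11 and 2.3e-12). PNO1 (ENSG00000115946), the KH-domain partner of the nuclease NOB1 (ENSG00000141101), was at 22.1, 23.4 and 22.7 CPM in the untreated libraries, 73.0, 73.0 and 74.8 CPM at 3 h and 74.6, 69.1 and 74.9 CPM at 6 h. All treated libraries were far above the untreated ones, and the log2 difference between 3 h and 6 h was -0.01 ± 0.0496. LTV1 and TSR1, which keep the precursor from joining translation early, had 1.30 ± 0.0530 and 1.39 ± 0.0533 at 6 h, and BYSL, an early 40S factor, had 0.87 ± 0.0559. Other annotated genes share 34.8% of the exon bases of LTV1, 20.8% of those of TSR1 and 20.2% of those of NOB1. NOB1, the nuclease that makes the final 18S end, was at 87.9, 88.0 and 95.9 CPM in the untreated libraries, 134, 134 and 138 CPM at 3 h and 121, 110.1 and 119 CPM at 6 h. The atypical kinase RIOK1 (ENSG00000124784) was at 37.5, 35.7 and 37.2 CPM in the untreated libraries, 79.0, 83.3 and 79.8 CPM at 3 h and 64.8, 62.8 and 68.0 CPM at 6 h. In both, the 6 h libraries lay between the other groups. RIOK2, a related kinase, had 0.80 ± 0.0549 and 0.71 ± 0.0550.

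**Figure D3:**
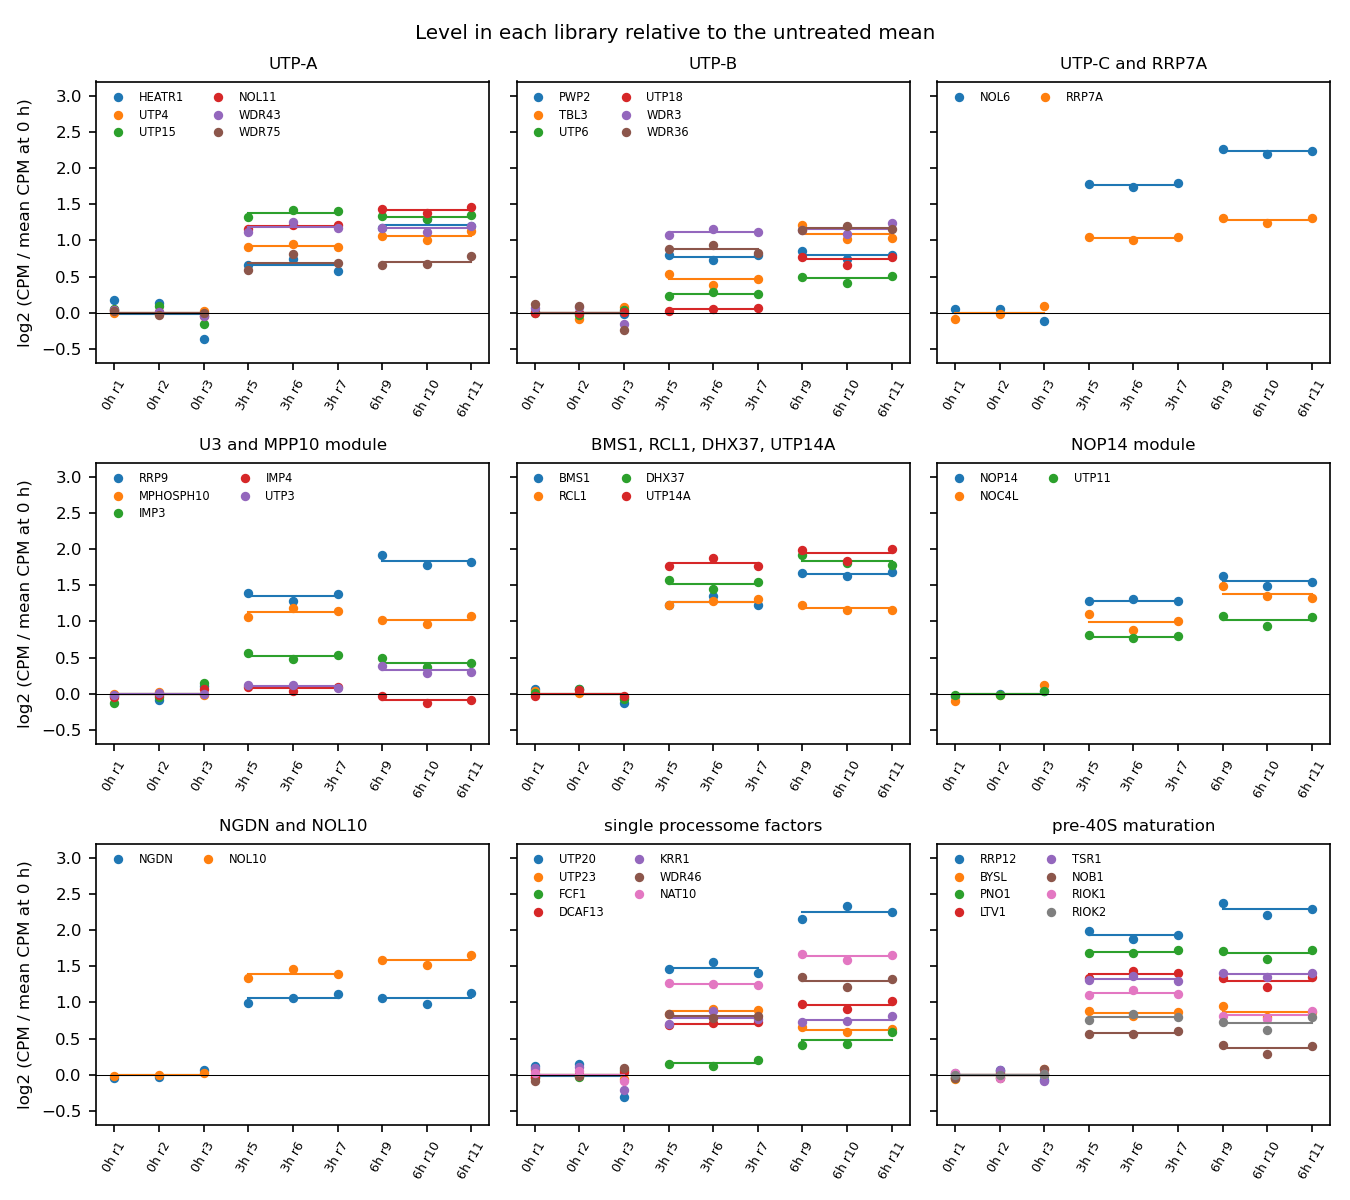
Log2 ratio of the CPM in each library to the gene's untreated mean (vertical axis) for the 9 libraries (horizontal axis, replicate numbers as r), a panel per role, with lines at the group means. Treated libraries lie above the untreated ones for nearly all genes, HEATR1 and UTP20 are low in untreated replicate 3, and IMP4 stays near 0.

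The third comparison asked which genes went on changing after 3 h. In edgeR's test, 23 of the 43 were higher at 6 h than at 3 h and 4 were lower, against 21.5% and 21.9% of all tested genes. The libraries of the 2 times did not overlap for the same numbers, 23 higher and 4 lower, against 27.2% and 28% of tested genes. The median was 0.19 log2 (1.14-fold), against 0.01 over all tested genes. Of the 23, 21 had risen by 3 h and UTP18 and UTP3 had not. Another 16 genes were higher than untreated at both times with no call between them. RIOK1 (-0.31 ± 0.0496), UTP23 (-0.26 ± 0.0498) and NOB1 (-0.22 ± 0.0533) fell back between 3 h and 6 h and stayed above untreated cells, and IMP4 was the fourth lower gene. Some of the smaller calls rested on single libraries. UTP4 was lost without 3 h replicate 5 or 7 or 6 h replicate 9 or 11 (edgeR adjusted p 0.0502 to 0.105), and IMP4 without 3 h replicate 5 or 7 or 6 h replicate 10 (0.0543 to 0.0693). NOL10 was lost without 3 h replicate 5 (edgeR adjusted p 0.0512) and WDR36 without 3 h replicate 7 (0.0509). UTP14A passed without untreated replicate 3, 3 h replicate 6 or 6 h replicate 10 (edgeR adjusted p 0.0184 to 0.0393), and MPHOSPH10 without untreated replicate 3 (0.0491).

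By role, NOL6 and RRP7A and the NOP14 module rose further in all of their 5 members, the single processome factors in 5 of 7 and UTP-B in 4 of 6. Of the 40S precursor factors, RRP12 rose further (0.36 ± 0.0568), RIOK1 and NOB1 fell, and 5 of 8 had no call. The order from the top was UTP20, UTP18, TBL3 (0.63 ± 0.0642), HEATR1 (0.56 ± 0.118), RRP9 (0.49 ± 0.0603), WDR46 (0.48 ± 0.0560) and NOL6 (0.46 ± 0.0531), and neighbours in it differed by less than the larger of their SEs. These SEs came from the fit to all libraries, untreated replicate 3 included. With a minimum fold of 1.2 in the test, 9 genes were higher and 0 lower. The shares of all tested genes under that test are not given here, so these counts have no background beside them.

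**Figure D4:**
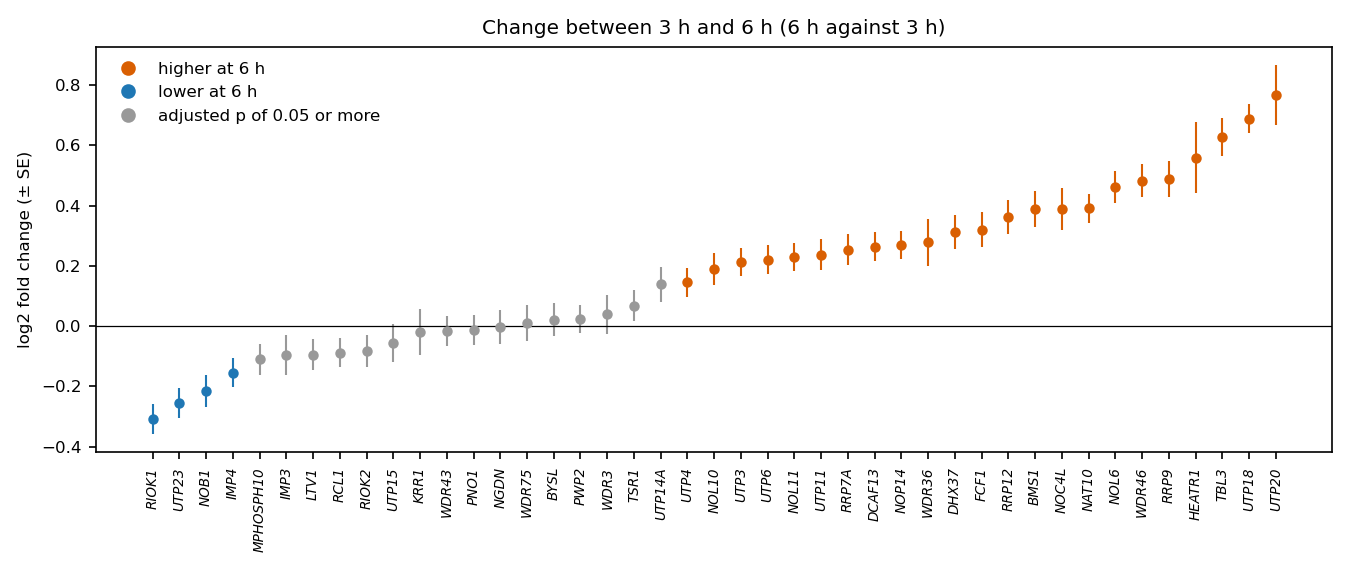
Log2 fold change of 6 h against 3 h (vertical axis, ± SE) for the 43 genes in ascending order, in orange where higher, blue where lower and grey where the adjusted p was 0.05 or more. RIOK1 at -0.31 and UTP20 at 0.77 are the ends of the range.

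Set against the E-boxes shown above, the genes with a match (17 measured) had median log2 fold changes of 1.27 at 3 h and 1.30 at 6 h, and those without one (21) had 0.80 and 1.06. Between 3 h and 6 h the order of the medians was the other way, with 0.15 for genes with a match and 0.21 for those without. The ranges overlapped, from -0.08 to 2.25 with a match and from 0.32 to 1.66 without at 6 h, and no test was made. UTP20, NOL6, UTP14A, RRP9, DHX37 and PNO1 had a match. UTP18 and IMP4, with 2 matches each, were among the 3 genes that did not pass at 3 h. MYC mRNA itself was at 541 to 583 CPM untreated, 422 to 464 CPM at 3 h and 339 to 362 CPM at 6 h, with log2 fold changes of -0.32 ± 0.0522 and -0.68 ± 0.0525 (edgeR adjusted p 9.36e-05 and 4.5e-08).

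**Figure D5:**
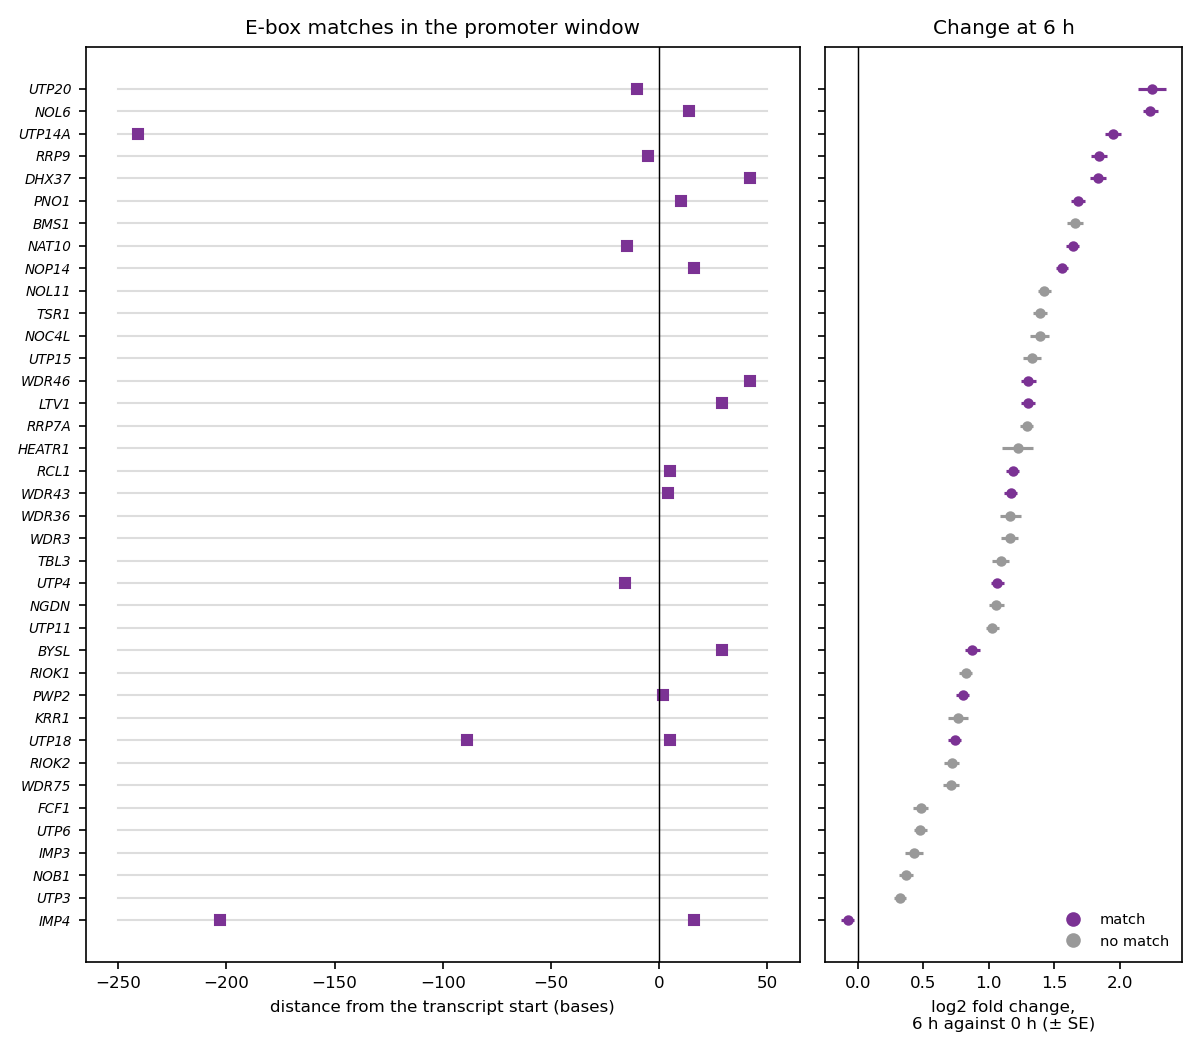
Left, position of each E-box match (purple squares, bases from the transcript start) in the promoter windows (grey lines) of the 38 measured genes with a window. Right, log2 fold change at 6 h against 0 h (± SE), purple for genes with a match. Most matches lie near the start, and IMP4, with 2 matches, is the lowest gene at -0.08.

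Other small subunit factors from a separate list also rose in most cases, with smaller medians. The difference between the lists was not tested. Of 33 tested, 29 were higher and 1 lower at 3 h (median 0.60), 30 higher and 1 lower at 6 h (0.73), and 14 higher and 5 lower at 6 h against 3 h (0.12). The shares higher were 87.9%, 90.9% and 42.4%, against 32.8%, 35.7% and 21.5% of all tested genes. The shares of all tested genes that were lower were 33.5%, 35% and 21.9%. CSNK1E, a casein kinase, was the lower one at both times. NOP56, a core protein of the box C/D particles to which U3 belongs, had log2 fold changes of 1.62 ± 0.0435 at 3 h and 1.27 ± 0.0431 at 6 h and fell in between (-0.35 ± 0.0424). Its paralogue NOP58 had 1.32 ± 0.0537 at 3 h. ESF1 had 1.29 ± 0.0537 and 1.54 ± 0.0539, UTP25 had 1.54 ± 0.0649 at 3 h, and the helicase DDX49 reached 1.64 ± 0.0528 at 6 h. NOM1 had 1.09 ± 0.0490 at 6 h. Between 3 h and 6 h, EMG1, a methyltransferase of 18S RNA, rose by 0.98 ± 0.0605, DDX49 by 0.53 ± 0.0513 and RRP36 by 0.40 ± 0.0553 (edgeR adjusted p 5.69e-08, 2.85e-06 and 6.24e-05).

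Against untreated cells, the genes of the 40S ribosomal proteins, the parts that these factors assemble, had medians near that of all tested genes. Between 3 h and 6 h their median was 0.14, against 0.01 over all tested genes and 0.19 for the processome and 40S maturation genes. Of the 33 ribosomal protein genes, 2 were higher at 3 h (median 0.01), 11 at 6 h (0.11) and 7 at 6 h against 3 h (0.14). In each, 0 were lower by edgeR (also at an unadjusted p under 0.05), DESeq2 and limma-voom. The higher ones are 6.06%, 33.3% and 21.2%, where 32.8%, 35.7% and 21.5% of all tested genes were higher. Of all tested genes, 33.5%, 35% and 21.9% were lower. RPS26 (0.40 ± 0.0712 at 3 h and 0.70 ± 0.0709 at 6 h) and RPS28 (0.49 ± 0.0861 and 0.69 ± 0.0859) were the genes that passed at 3 h, at only 12.3 and 10.3 CPM untreated, and genes of this family have many near-identical copies that share reads. RPS13 (0.25 ± 0.0568) and FAU (0.32 ± 0.0755) were among those higher at 6 h. RPS14 (0.18 ± 0.0538) was among those higher at 6 h than at 3 h. These counts followed the scaling and 1 library. With library size alone, 19 were lower at 3 h and 8 at 6 h, where 7448 and 7503 of all 15847 tested genes were lower. Without the untreated replicate 3, 10 were higher at 3 h and 23 at 6 h. Counts over all tested genes without that library are not given here, so these 10 and 23 have no background beside them.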

How the data were processed

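For each of 9 libraries, the authors deposited unnormalised counts of reads by Ensembl gene. Per the submitters' processing notes, GSNAP, HTSeq 0.6.0, limma 3.30.0 and build hg19 were used. The annotation release and the strand setting of the counting are not given in the sources used here. From the counts, 5 summary entries were set aside, and filterByExpr (at least 10 reads, and 15 over all libraries) kept 15847 of the 28412 genes that had a read. A robust quasi-likelihood model in edgeR 4.0.16 (R 4.3.3) with TMM factors (means 1.11, 0.962 and 0.940 at 0 h, 3 h and 6 h) described each group by its mean, and all libraries entered it (6 residual degrees of freedom). Tests were two-sided with Benjamini-Hochberg adjustment over all tested genes at 0.05, and the SE was the log2 fold change divided by the square root of F. The procedure was tested on simulated data. Lengths (exon unions, for RPKM) and overlaps came from GENCODE v29, symbols from a name reference, and promoters from RefSeq, whose strand was checked against annotated starts (37 of 39 found in the window).

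Other settings tried were the tests of DESeq2 1.42.0 and of limma-voom (limma 3.58.1), scaling by DESeq2 size factors, by upper-quartile factors or by library size alone, filters of none or of 1 CPM in 3 libraries, a fit to the 2 groups compared, a minimum fold of 1.2, and each library left out. Named genes are all listed members, up to 4 genes per context list and comparison with the smallest p, and MYC. A gene that this rule named is not reported here. The members and lists were chosen with earlier results of these data known. CSNK1E was named after its values were seen.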

Additional observations from a re-analysis of the deposited data

Results flagged for a closer look

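These 27 genes were picked out because their level after 6 h differed from that after 3 h in edgeR's test of 6 h against 3 h (adjusted p under 0.05), so that the changes at the 2 treated times differed. Values are log2 fold changes of 6 h against 3 h. Among the UTP-A and UTP-B subunits, the later level was higher for HEATR1 0.56, UTP4 0.15, NOL11 0.23, TBL3 0.63, UTP6 0.22, UTP18 0.69 and WDR36 0.28. In UTP-C, RRP7A and the NOP14 module the values were NOL6 0.46, RRP7A 0.25, NOP14 0.27, NOC4L 0.39 and UTP11 0.24. The U3 and MPP10 proteins gave RRP9 0.49 and UTP3 0.21, with IMP4 lower at -0.15. For the rearranging enzymes and NOL10 they were BMS1 0.39, DHX37 0.31 and NOL10 0.19. The single factors gave UTP20 0.77, FCF1 0.32, DCAF13 0.26, WDR46 0.48 and NAT10 0.39, with UTP23 lower at -0.26. Of the 40S precursor factors, RRP12 had 0.36, RIOK1 -0.31 and NOB1 -0.22. Of the 43 genes, 9 were called in the same direction in this comparison under all 18 alternatives. The share of all tested genes that were is not given here.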

How the results depend on the processing

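Against untreated cells, 38 of the 43 genes at 3 h and 41 at 6 h were called higher under all 18 alternatives. Here, counts over all tested genes are given for upper-quartile factors and library size alone only. The other counts of members have no such background beside them. With upper-quartile factors, 1 gene was called lower at 3 h and 1 at 6 h, where 6854 and 6736 of all 15847 tested genes were lower. The medians were 0.88 and 1.02. With library size alone, 2 were lower at 3 h, 1 at 6 h and 7 at 6 h against 3 h. Of all 15847 tested genes, 7448, 7503 and 3964 were lower in these comparisons, in that order. The members' medians at 3 h and 6 h were 0.83 and 0.93. A filter of 1 CPM in 3 libraries called 1 gene, IMP4, lower at 6 h. Directions at 3 h turned for UTP18 (-0.10 with upper-quartile factors, -0.15 with library size alone), IMP4 (-0.13 with library size alone, -0.08 with upper-quartile factors), UTP3 (-0.09 with library size alone, -0.044 with upper-quartile factors) and FCF1 (-0.044 with library size alone). A minimum fold of 1.2 left 9 genes higher and 0 lower between 3 h and 6 h. Leaving out each library in turn gave 39 to 42 genes higher at 3 h, 42 to 42 at 6 h and 21 to 24 between 3 h and 6 h, 3 to 5 lower between them, and medians of 0.99 to 1.06, 1.09 to 1.19 and 0.16 to 0.22. Over all tested genes, the share of calls that were higher moved from 49.5% to 36.0% (upper-quartile factors) and 31.8% (library size alone) at 3 h, and from 50.5% to 39.2% and 32.8% at 6 h. Apart from the scaling, the cause of these moves was not tested. No paired analysis was possible because the groups share no replicate numbers. With 3 libraries a group and a shared estimate of spread, small fold changes such as that of FCF1 are at the limit of the test.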

Other observations

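Per kilobase of exon, the untreated levels of the 43 genes ran from 2.75 RPKM for UTP15 to 93.4 RPKM for IMP4, with a median of 10.7 RPKM, and the medians at 3 h and 6 h were 20.2 and 21.8 RPKM. The SD of log2 RPKM among the genes was 1.08 ± 0.0536 untreated, 0.952 ± 0.0167 at 3 h and 0.963 ± 0.0166 at 6 h (SD over 3 libraries). It was 1.048 and 1.050 in untreated replicates 1 and 2 and 1.142 in untreated replicate 3. Across the 43 genes, the Spearman correlation of the log2 fold change with the untreated level was -0.39 at 3 h and -0.31 at 6 h; both measures use the same untreated libraries, and the correlation is given as a description. Reads of mitochondrial genes were 2.94% of the total untreated, 2.67% at 3 h and 2.43% at 6 h.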
